A study of Homo sapiens with 6 samples.

Results

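The axon guidance ligands and receptors described here are the semaphorins, plexins, neuropilins, ephrins, Eph receptors, netrins, Slits and Robos of the deposited expression table. They were found by a rule on gene names, set with earlier results of these data known: SEMA, PLXN, NRP, EPHA, EPHB, EFNA, EFNB, NTN, SLIT or ROBO followed by a number or a letter A to D. The name rule found 63 genes among 25442 on the primary chromosomes: 20 semaphorins, 9 plexins, 2 neuropilins, 8 ephrins, 14 Eph receptors, 4 netrins, 2 Slits and 4 Robos. The values were read as FPKM, a unit inferred from their range and the style of the loci, because the header names none. FPKM scales fragments by transcript length and library size. Levels, shares and ratios between different genes hold only on that reading. RNA-seq had been run on 6 libraries of YAPC, a human pancreatic cancer (PDA) line used as a model of the classical subtype, to find the genes that respond to the Hedgehog pathway transcription factor GLI2. The 3 YAPC-iGLI2 libraries came from cells with the plasmid pRetroX-Tight-Puro carrying a Flag-tagged human GLI2 cDNA, and the 3 YAPC-iEV libraries from cells with the same plasmid left empty. Both lines also carried the doxycycline-dependent activator rtta and both were kept in 1 μg/ml doxycycline (Dox) for 6 days, so the contrast is between plasmids and not between Dox and no Dox. The methods speak of independent biological replicates for the study in general, but neither they nor the labels say whether these 3 libraries of a group were separate cultures or whether either line was a single clone, so p-values measure the spread between these libraries, which may be technical.

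Axon guidance proteins were named for steering growing nerve fibres, and the same ligands and receptors act between epithelial, endothelial and tumor cells. Secreted class 3 semaphorins bind a neuropilin that signals through a plexin, whereas most membrane-bound semaphorins bind plexins directly. Ephrins are held on the cell surface, the A class by a lipid anchor and the B class by a transmembrane segment, and they bind Eph receptor tyrosine kinases on the neighbouring cell. Netrins are laminin-related secreted proteins that bind DCC, neogenin and UNC5 receptors, and Slits bind Robo receptors.

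GLI2, at chr2:121554867-121750229 (hg19), stood at 0.466, 0.412 and 0.344 FPKM in iEV replicates 1 to 3 and at 94.5, 207 and 195 FPKM in iGLI2 replicates 1 to 3 (log2 fold change 6.81, SE 0.30, limma adjusted p = 0.000162), which matches the labels. Replicate 1 had the lowest GLI2 level of the iGLI2 libraries. Total FPKM was 981341 to 1082680 in the iEV libraries and 803145 to 889555 in the iGLI2 libraries, and the depth in reads is unknown because the table holds no counts. The small RNA gene MIR4461 took 42.6% to 45.4% of the total in iEV and 35.7% to 37.7% in iGLI2. Of 8 epithelial markers, 6 were above 1 FPKM (summed level 2230 to 2379 FPKM in iEV, 2023 to 2271 in iGLI2), while the epithelial keratins KRT8 and KRT18 were listed at 0 in every library, so a 0 in this table was not read as absence. The sum covers opposite differences. At a limma adjusted p under 0.05, 2 of the 6 were higher in iGLI2, 1 was lower and 3 did not pass (10.1% and 11.8% of all genes tested were higher and lower). Of 8 neural and glial markers 7 were under 1 FPKM in every library (summed level 1.44 to 1.84 FPKM in iEV, 1.04 to 1.61 in iGLI2), with SOX10 listed at 0. For 8 fibroblast markers the summed level was 1.40 to 1.59 FPKM in iEV and 2.37 to 3.07 in iGLI2, with DCN listed at 0 and 7 under 1 FPKM throughout. That difference lay mainly in the remaining fibroblast marker, the only one tested, which was higher in iGLI2. For 8 leukocyte markers it was 13.8 to 18.1 FPKM and 8.96 to 17.2 FPKM, with MS4A1 listed at 0 and 6 under 1 FPKM throughout. For 8 endothelial markers it was 2.36 to 2.73 FPKM in iEV and 5.596 to 6.89 in iGLI2. That difference lay mainly in ESAM (1.30, 1.71 and 1.40 FPKM against 4.40, 4.68 and 4.85 FPKM). CLDN5 (mean 0.602 FPKM in iEV and 1.08 in iGLI2) and TIE1 (0.0553 and 0.328) were also higher in every iGLI2 library, and VWF (0.297 and 0.149) was lower. The defining markers PECAM1 and CDH5 reached at most 0.167 and 0.0314 FPKM, and 6 of the 8 were under 1 FPKM throughout.

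The sequences just upstream of the RefSeq start sites are shown for EFNB1, NRP2, SEMA7A and NTN4, which were at least 2-fold higher in iGLI2 cells and whose RefSeq start lies at the start of the locus in the table. Each run is the 250 bases before the start, read 5′ to 3′ on the strand of the gene, from the RefSeq table of build GRCh38.p14. Each was found unchanged at a single place in GRCh37, whose coordinates are given. Capitals mark CpG dinucleotides.
EFNB1, chrX:68048614-68048863, plus strand: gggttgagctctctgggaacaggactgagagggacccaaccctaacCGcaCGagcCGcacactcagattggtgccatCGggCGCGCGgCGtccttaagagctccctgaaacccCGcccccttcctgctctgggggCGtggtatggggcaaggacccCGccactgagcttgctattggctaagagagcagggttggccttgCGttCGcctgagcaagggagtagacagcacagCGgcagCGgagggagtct
NRP2, chr2:206546975-206547224, plus strand: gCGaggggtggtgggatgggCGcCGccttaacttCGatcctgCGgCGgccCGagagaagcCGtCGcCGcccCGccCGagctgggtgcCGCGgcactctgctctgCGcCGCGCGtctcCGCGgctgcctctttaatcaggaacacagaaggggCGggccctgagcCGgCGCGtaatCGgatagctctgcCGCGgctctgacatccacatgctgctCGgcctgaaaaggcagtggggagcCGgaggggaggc
SEMA7A, chr15:74726300-74726549, minus strand: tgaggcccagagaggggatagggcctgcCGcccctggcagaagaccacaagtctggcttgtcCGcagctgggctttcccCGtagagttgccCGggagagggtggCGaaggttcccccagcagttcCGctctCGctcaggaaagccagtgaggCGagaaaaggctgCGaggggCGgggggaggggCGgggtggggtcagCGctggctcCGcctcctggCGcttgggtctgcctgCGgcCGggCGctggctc
NTN4, chr12:96184543-96184792, minus strand: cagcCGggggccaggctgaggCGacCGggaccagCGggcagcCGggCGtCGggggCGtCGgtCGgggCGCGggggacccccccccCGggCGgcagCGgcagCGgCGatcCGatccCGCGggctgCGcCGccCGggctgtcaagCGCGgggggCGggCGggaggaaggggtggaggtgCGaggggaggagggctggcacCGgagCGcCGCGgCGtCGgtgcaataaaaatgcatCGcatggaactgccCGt

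The EFNB1 stretch holds 15 CpG dinucleotides (63.6% G and C), the NRP2 stretch 29 (70.0%), the SEMA7A stretch 17 (70.0%) and the NTN4 stretch 36 (78.4%). The windows of the RefSeq table hold 300 bases, from 250 before a start to 50 after it. Over the 250 bases before the start, the same length as above, the median was 11 CpG dinucleotides (quartiles 3 and 23, 35116 windows) and 58% G and C. The 87 windows of the 55 members matched by symbol had medians of 17 and 64.8% over these 250 bases. The EFNB1 stretch lay under the members' median in CpG dinucleotides and in G and C. Both strands of the full 300-base windows were searched for GACCACCCA, the consensus sequence bound by GLI proteins in textbook accounts. It was present in 83 of 35116 windows (0.236%) and in a single member window. That window belongs to SEMA3B, where the match runs over chr3:50273174-50273182 (GRCh38.p14), starts 26 bases after a RefSeq start and lies on the strand opposite to the gene.
SEMA3B, match in capitals: tgctagaggtTGGGTGGTCagacactgtg

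With any base at the fifth position (GACCNCCCA, which includes the sequence above) the share of all windows was 1.09%, and 4 windows of 3 matched members held a match. These were SEMA3B, with a further match at chr3:50269063-50269071, EPHB4 at chr7:100827742-100827750 and SEMA4G at chr10:100969316-100969324. SEMA3B was the only gene with a match among the 9 matched members that were higher in iGLI2 cells, and 0 of the 5 that were lower had a match in these windows. The SEMA3B matches lie at RefSeq starts inside its locus in the table, not at the start of that locus. SEMA3B has 5 RefSeq windows, so it had more places for a match than a member with a single window. A match is only a string of letters, and the binding of GLI2 at these places was not measured here.

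Of the 63 genes, 35 averaged 1 FPKM or more across the libraries and were tested with the other genes above that level (12493 in all). At an adjusted p under 0.05 (limma on log2 of FPKM + 1, Benjamini-Hochberg over all genes tested), 12 of the 35 were higher in iGLI2 cells and 5 were lower, and 18 did not pass. Over all genes tested 21.9% passed in either direction, 10.1% as higher and 11.8% as lower, against 48.6% of the tested members, 34.3% as higher and 14.3% as lower. The genes that passed and were at least 2-fold higher in FPKM + 1 (log2 fold change of 1 or more) numbered 6 (2.59% of all genes tested): EFNB1, NRP2, SEMA7A, SEMA3B, NTN4 and EPHB6. No member that passed was at least 2-fold lower (1.62% of all genes tested). Of the tested members SEMA3B, EPHB1 and EPHB3 averaged under 1 FPKM in 1 group and entered through the other. Among the 32 that averaged 1 FPKM or more in both groups, 11 were higher, 5 of them at least 2-fold, and 4 were lower. The values of iGLI2 lay above those of iEV without overlap for 16 members (19.2% of all genes tested) and below them for 8 (22.8%), and the groups overlapped for 11. The median log2 fold change was 0.29 over the 35 members and -0.015 over all genes tested, and the median size without sign was 0.41 against 0.18. These are bulk libraries, in which a change in the share of cells that express a gene and a change in the RNA per cell cannot be told apart.

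The number of members that were lower changed more, for its size, when a library was left out than the number that were higher. Without 1 library at a time, 8 to 15 members were higher, and the number lower was 2 without iEV replicate 1, 1 without iEV replicate 2, 1 without iEV replicate 3, 2 without iGLI2 replicate 2 and 1 without iGLI2 replicate 3. It was 6 without iGLI2 replicate 1. Calls over all genes moved as well, from 1223 without iEV replicate 2 to 3753 without iGLI2 replicate 1, against 2742 with all libraries. Of those calls 45.2% to 49.7% were higher in iGLI2 with a library left out. Whether the members moved more than other genes was not tested. When small RNA genes were left out and the libraries rescaled, 59.3% of the calls over all genes were higher in iGLI2 against 46.0% as deposited, and 15 members were higher and 3 lower. The 9 members SEMA7A, SEMA3B, SEMA4C, SEMA3C, NRP1, NRP2, EFNB1, EPHB6 and NTN4 passed in every alternative fit run on them and without each library in turn. The direction of the 17 members that passed was the same in every alternative fit.

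**Figure D1:**
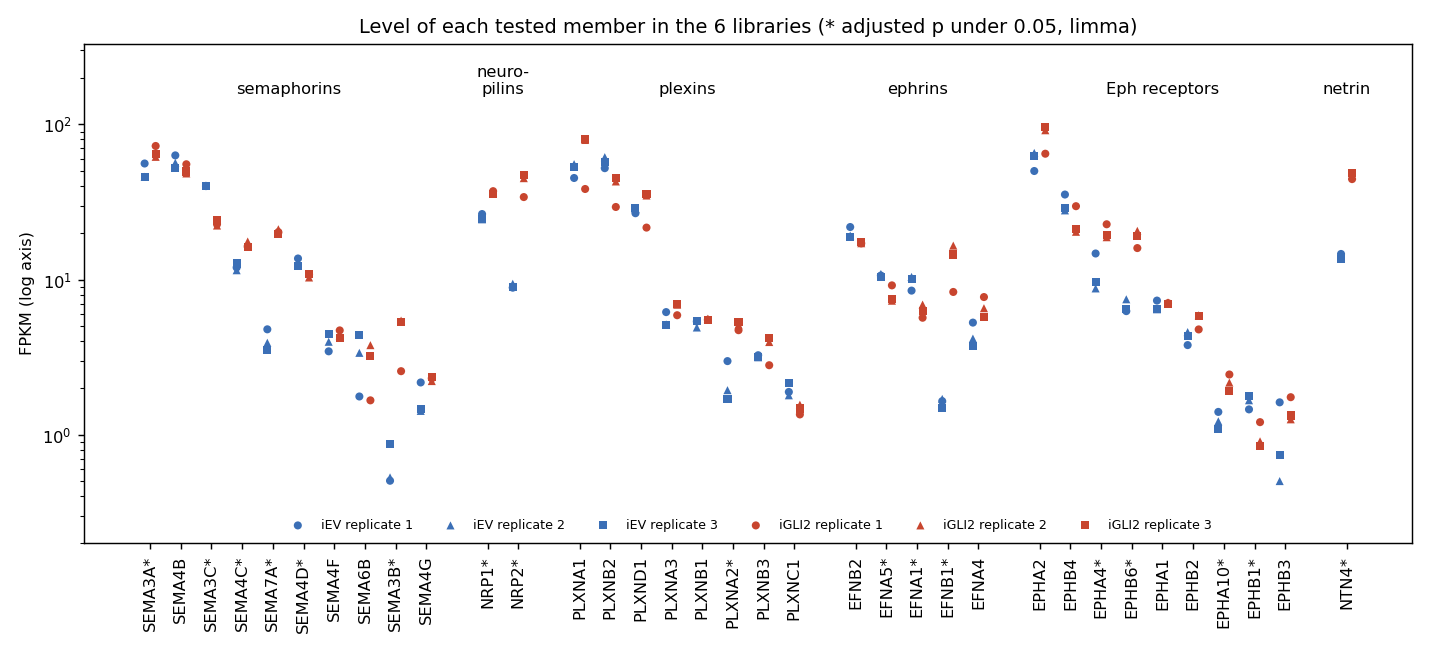
FPKM of the 35 tested members in each of the 6 libraries, on a log axis, by family and by mean level, with iEV in blue and iGLI2 in red and a marker shape for each replicate. The red points of EFNB1, NRP2, SEMA7A, SEMA3B, EPHB6 and NTN4 sit apart from the blue ones, and an asterisk marks an adjusted p under 0.05.

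**Figure D2:**
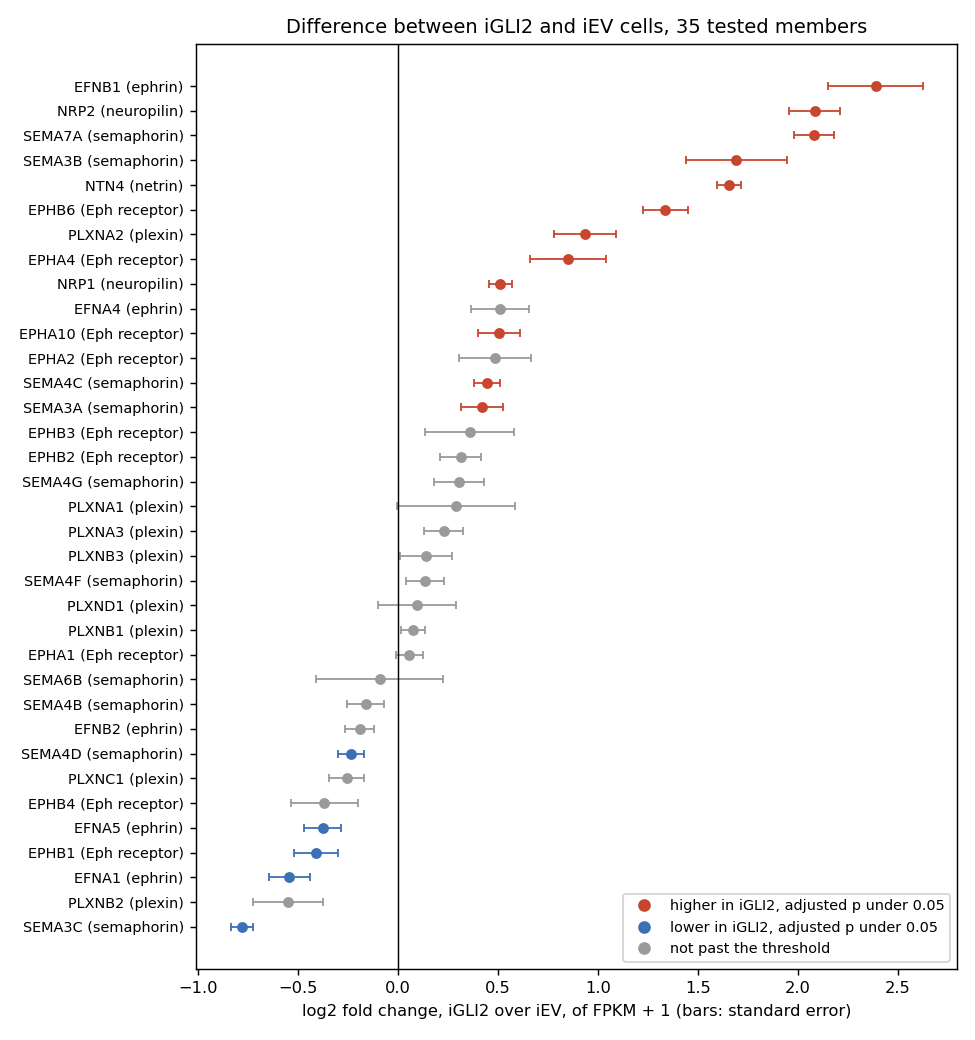
Log2 fold change of FPKM + 1 between iGLI2 and iEV cells for the 35 tested members, with the standard error as a bar, in order of size. The 12 members that were higher reach from SEMA3A at 0.42 to EFNB1 at 2.39, and the 5 that were lower from SEMA4D at -0.24 to SEMA3C at -0.78.

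Among the semaphorins, the ligand family, 10 of 20 were tested, of which 4 were higher in iGLI2 cells, 2 lower and 4 did not pass (10.1% and 11.8% of all genes tested were higher and lower). SEMA7A, a semaphorin with a lipid anchor that binds an integrin and plexin C1, showed the smallest adjusted p of the family. It lies at chr15:74701630-74726299 on the minus strand. SEMA7A was at 4.78, 3.91 and 3.52 FPKM in iEV replicates 1 to 3 and at 20.2, 21.1 and 19.6 FPKM in iGLI2 replicates 1 to 3. Every iGLI2 library was several times above every iEV library, and the mean went from 4.07 ± 0.644 to 20.3 ± 0.753 FPKM (SD, n = 3), a ratio of 4.99 (log2 fold change 2.08, SE 0.10, limma adjusted p = 0.000219).

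The secreted class 3 semaphorins, which signal through neuropilins, moved in both directions. SEMA3B, at chr3:50304990-50314602, measured 0.505, 0.531 and 0.872 FPKM in iEV and 2.57, 5.44 and 5.32 FPKM in iGLI2. All iGLI2 values were above all iEV values, with replicate 1 the lowest of them, and the ratio of the means was 6.99 (log2 fold change 1.69, SE 0.25, limma adjusted p = 0.00719). SEMA3B averaged under 1 FPKM in iEV and was tested only because of its level in iGLI2, and in the fit without the filter its adjusted p was 0.0114 (limma). SEMA3F, a ligand of neuropilin 2 that lies 78481 bases from SEMA3B on chromosome 3, was under the level set for testing. It was listed at 0.0556, 0.120 and 0.0939 FPKM in iEV and at 1.01, 1.70 and 1.79 FPKM in iGLI2, with no overlap, and in a fit without the filter the difference was 1.18 on the log2 scale (limma adjusted p = 0.00402, with 7.44% of the 20035 genes in that fit higher and 7.62% lower). SEMA3C, at chr7:80371854-80548667, went the other way. It was at 40.0, 40.4 and 40.4 FPKM in iEV and at 22.7, 22.3 and 24.1 FPKM in iGLI2, lower in every iGLI2 library, and the iEV mean was 1.75 times the iGLI2 mean (log2 fold change -0.78, SE 0.055, limma adjusted p = 0.000659). SEMA3A, the founding ligand of neuropilin 1 (chr7:83587659-83824217), was at 56.0, 46.0 and 46.0 FPKM in iEV and at 72.6, 61.8 and 64.1 FPKM in iGLI2. The groups did not overlap (log2 fold change 0.42, SE 0.11, limma adjusted p = 0.0398). The call rested on the full set of libraries: it was kept without iEV replicate 1 and lost without any of the other 5, with an adjusted p of up to 0.139. It was also lost under quantile normalization (0.0550) and with a block by sample-code digit (0.0633). The ratio of SEMA3A to SEMA3C was 1.40, 1.14 and 1.14 in the iEV libraries and 3.19, 2.77 and 2.66 in the iGLI2 libraries, a ratio chosen after the values were seen. SEMA3E, which binds plexin D1 without a neuropilin, was listed at 0.399, 0.222 and 0.225 FPKM in iEV and 1.05, 0.577 and 0.591 FPKM in iGLI2, above without overlap and under the level set for testing (limma adjusted p = 0.0681 in the fit without the filter).

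The class 4 semaphorins are transmembrane ligands. SEMA4C, a ligand of plexin B2, was at 12.0, 11.5 and 12.7 FPKM in iEV and at 16.3, 17.6 and 16.3 FPKM in iGLI2, higher in every iGLI2 library by a modest margin (log2 fold change 0.44, SE 0.064, limma adjusted p = 0.00632). SEMA4D, the ligand of plexin B1, was at 13.7, 12.3 and 12.2 FPKM in iEV and 10.8, 10.3 and 10.8 FPKM in iGLI2, without overlap (log2 fold change -0.24, SE 0.065, limma adjusted p = 0.0482). Its call was lost without each of the 6 libraries (adjusted p from 0.0532 to 0.167), under upper quartile scaling (0.0654), quantile normalization (0.0543) rescaling without small RNA genes (0.213), no filter (0.0689), no trend (0.0565) and with a block by sample-code digit (0.0902). SEMA4B was the most abundant semaphorin of class 4, at 63.2, 56.6 and 52.4 FPKM in iEV and 55.4, 48.3 and 49.7 FPKM in iGLI2, with overlapping groups (log2 fold change -0.16, SE 0.093, limma adjusted p = 0.272). In the iEV libraries SEMA4B and SEMA3A overlapped in level (52.4 to 63.2 and 46.0 to 56.0 FPKM), whereas in the iGLI2 libraries SEMA3A lay above SEMA4B (61.8 to 72.6 against 48.3 to 55.4 FPKM). SEMA4F (3.45, 3.97 and 4.44 FPKM in iEV, 4.70, 4.37 and 4.20 in iGLI2) and the class 6 member SEMA6B (1.76, 3.37 and 4.41 FPKM in iEV, 1.66, 3.78 and 3.23 in iGLI2) also overlapped, with adjusted p of 0.363 and 0.864 from limma. SEMA4G was at 2.17, 1.42 and 1.47 FPKM in iEV and 2.31, 2.22 and 2.35 FPKM in iGLI2, above without overlap (limma adjusted p = 0.140, and 0.0208 without iEV replicate 1), and 22.9% of its exon bases overlap MRPL43 on the opposite strand, whose reads this unstranded kit cannot separate. SEMA4A, under the level set for testing, was listed at 0.860, 1.48 and 1.43 FPKM in iEV and 0.327, 0.685 and 0.577 FPKM in iGLI2, with the iGLI2 values below (limma adjusted p = 0.0579 in the fit without the filter).

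Both neuropilins, the receptors that hold class 3 semaphorins, were higher in iGLI2 cells, as were 10.1% of all genes tested. NRP2, at chr2:206547224-206662857, was at 8.86, 9.40 and 8.96 FPKM in iEV replicates 1 to 3 and at 34.0, 45.0 and 47.1 FPKM in iGLI2 replicates 1 to 3. The iEV values lay close together and far below all iGLI2 values, of which replicate 1 was the lowest. The mean went from 9.07 ± 0.285 to 42.0 ± 7.03 FPKM (SD, n = 3), a ratio of 4.63 (log2 fold change 2.08, SE 0.13, limma adjusted p = 0.000428). NRP1, at chr10:33466419-33623833, was at 26.4, 24.4 and 24.5 FPKM in iEV and at 37.1, 36.2 and 35.4 FPKM in iGLI2, also without overlap and with a smaller difference (log2 fold change 0.51, SE 0.059, limma adjusted p = 0.00292). The ratio of NRP2 to NRP1 was 0.335, 0.384 and 0.365 in the iEV libraries and 0.916, 1.25 and 1.33 in the iGLI2 libraries. NRP1 was therefore the more abundant of the pair in all iEV libraries and in iGLI2 replicate 1, and NRP2 in iGLI2 replicates 2 and 3. The mean share of NRP2 in the summed neuropilin FPKM was 26.5% in iEV and 53.5% in iGLI2. The sum itself was 34.2 ± 0.965 FPKM in iEV and 78.3 ± 6.21 FPKM in iGLI2 (SD, n = 3).

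Of the 9 plexins, the signalling receptors of the semaphorins, 8 were tested and only PLXNA2 passed, as higher (10.1% of all genes tested were higher and 11.8% lower). PLXNA2, a partner of the neuropilins at chr1:208195588-208417665, was at 2.98, 1.94 and 1.71 FPKM in iEV and at 4.72, 5.12 and 5.31 FPKM in iGLI2, with no overlap and a ratio of the means of 2.29 (log2 fold change 0.93, SE 0.15, limma adjusted p = 0.0102). Without iEV replicate 2 its adjusted p was 0.0503. PLXNA1, the most abundant plexin of the A class, was at 45.1, 55.5 and 52.9 FPKM in iEV, at 38.4 FPKM in iGLI2 replicate 1, below every iEV library, and at 79.4 and 80.0 FPKM in iGLI2 replicates 2 and 3, above them all (log2 fold change 0.29, SE 0.30, limma adjusted p = 0.530). PLXNA1 passed without iGLI2 replicate 1 (0.63, limma adjusted p = 0.0107). PLXND1, the SEMA3E receptor, had the same layout, at 26.8, 28.5 and 28.9 FPKM in iEV and 21.6, 34.8 and 35.8 FPKM in iGLI2 (log2 fold change 0.10, SE 0.19, limma adjusted p = 0.763). Its log2 fold change was 0.32 without iGLI2 replicate 1 (adjusted p = 0.0122, limma) and below 0 without iGLI2 replicate 2 or 3 (-0.0088 and -0.029). PLXNB2, the receptor of SEMA4C, was at 52.2, 61.5 and 57.4 FPKM in iEV and at 29.4, 42.9 and 45.4 FPKM in iGLI2, where every library was below the iEV values and replicate 1 the lowest (log2 fold change -0.55, SE 0.17, limma adjusted p = 0.0723). It passed without iGLI2 replicate 1 (log2 fold change -0.36, limma adjusted p = 0.0313), under rescaling without small RNA genes (0.0426) and with a block by replicate number (0.0292).

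The remaining plexins were all under 7 FPKM and did not pass. PLXNA3 was at 6.17, 5.14 and 5.08 FPKM in iEV and 5.89, 6.88 and 6.92 FPKM in iGLI2, with overlap (limma adjusted p = 0.152). PLXNB1, the SEMA4D receptor, was at 5.37, 4.91 and 5.38 FPKM in iEV and 5.50, 5.59 and 5.52 FPKM in iGLI2, a narrow gap without overlap (limma adjusted p = 0.435). PLXNC1, the plexin that binds SEMA7A, was at 1.89, 1.79 and 2.16 FPKM in iEV and 1.35, 1.56 and 1.48 FPKM in iGLI2, below without overlap (limma adjusted p = 0.0926, and 0.0455 under quantile normalization). PLXNB3, of which 20.4% of the exon bases overlap SRPK3, was at 3.25, 3.15 and 3.18 FPKM in iEV and 2.80, 3.96 and 4.23 FPKM in iGLI2 (limma adjusted p = 0.493, and 0.0249 without iGLI2 replicate 1). PLXNA4 reached at most 0.133 FPKM in any library. The summed plexin FPKM was 144, 162 and 157 in the iEV libraries and 110, 180 and 185 in the iGLI2 libraries, so that iGLI2 replicate 1 lay below all iEV libraries and the other two above them.

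**Figure D3:**
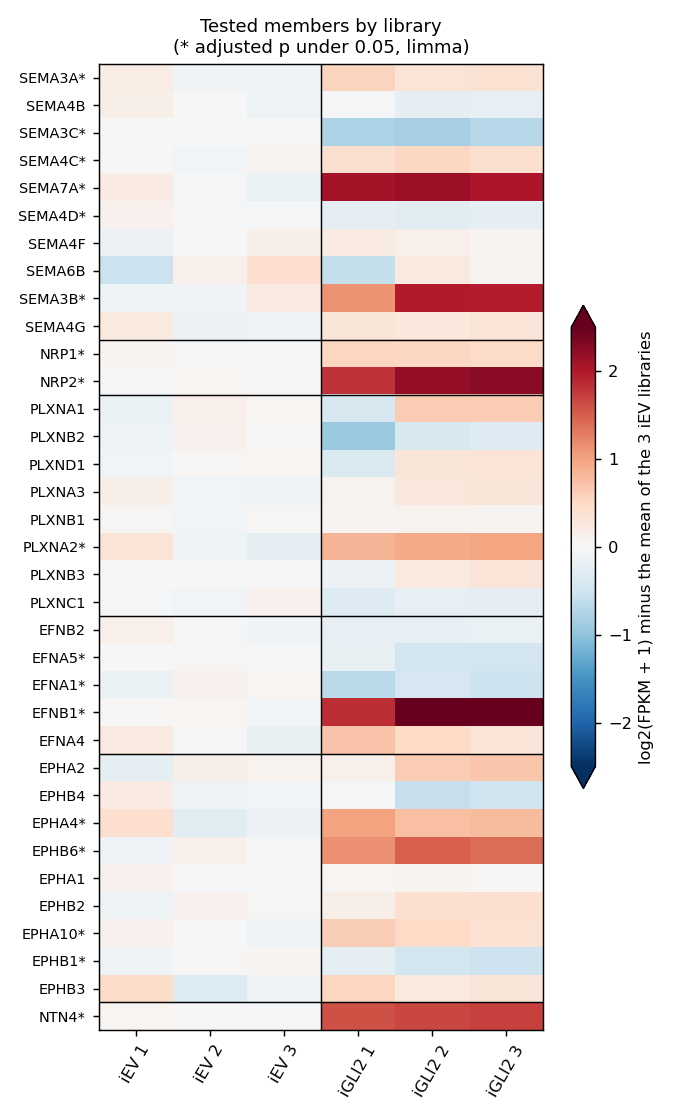
Log2(FPKM + 1) of each tested member in each library, minus the mean of the 3 iEV libraries, by family, with red for higher and blue for lower. The column of iGLI2 replicate 1 is paler than the other iGLI2 columns for NRP2, SEMA3B and EFNB1 and differs from them in sign for PLXNA1 and PLXND1, and its GLI2 level (94.5 FPKM) was also the lowest of the 3.

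Among the members that rose, EFNB1, NRP2, SEMA3B, EPHB6, PLXNA2 and NTN4 were lowest in iGLI2 replicate 1, where GLI2 was also lowest. SEMA3A, NRP1, EPHA4 and EPHA10 were highest in that library, and SEMA7A and SEMA4C lay in between. For SEMA7A, NRP1 and NTN4 the 3 iGLI2 libraries lay within 19.6 to 21.1, 35.4 to 37.1 and 44.4 to 48.3 FPKM. In a fit on replicates 2 and 3 of both groups, chosen after the data were seen, 21 members were higher and 7 lower, against 21.3% and 22.5% of all genes tested. The part of the GLI2 level in the difference between the iGLI2 libraries was not tested.

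Among the ephrins, the membrane-held ligands of the Eph receptors, 5 of 8 were tested, with 1 higher, 2 lower and 2 that did not pass (10.1% and 11.8% of all genes tested were higher and lower). EFNB1, a transmembrane ephrin at chrX:68048840-68062006, showed the largest called difference of all 35 tested members. It was at 1.64, 1.70 and 1.48 FPKM in iEV replicates 1 to 3 and at 8.32, 16.6 and 14.5 FPKM in iGLI2 replicates 1 to 3. The iEV values were nearly equal and far below the iGLI2 values, of which replicate 1 was the lowest. The mean went from 1.61 ± 0.116 to 13.1 ± 4.29 FPKM (SD, n = 3), a ratio of 8.16 (log2 fold change 2.39, SE 0.24, limma adjusted p = 0.00174). EFNB2, the transmembrane ephrin best known from arteries, was at 21.8, 19.2 and 18.7 FPKM in iEV and 17.1, 17.1 and 17.5 FPKM in iGLI2, with the iGLI2 values below and no overlap (log2 fold change -0.19, SE 0.072, limma adjusted p = 0.113). The exons of EFNB2 share 36.4% of their bases with ENSG00000284966 on the opposite strand, so its reads are not certain to be its own. The ratio of EFNB1 to EFNB2 was 0.0754, 0.0886 and 0.0789 in the iEV libraries and 0.486, 0.966 and 0.829 in the iGLI2 libraries.

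The lipid-anchored A-class ephrins were lower or did not pass. EFNA1, at chr1:155100349-155107386, was at 8.49, 10.4 and 10.03 FPKM in iEV and 5.67, 6.90 and 6.30 FPKM in iGLI2, without overlap (log2 fold change -0.54, SE 0.10, limma adjusted p = 0.0147). Its call was lost without iEV replicate 2 (adjusted p = 0.0678, limma), without iEV replicate 3 (0.0697) and without iGLI2 replicate 3 (0.0589). EFNA5 was at 10.6, 10.9 and 10.4 FPKM in iEV and 9.17, 7.30 and 7.49 FPKM in iGLI2, also without overlap (log2 fold change -0.38, SE 0.091, limma adjusted p = 0.0337). It was called only without iGLI2 replicate 1 when single libraries were left out (up to 0.125 without the other 5), and not under upper quartile scaling (0.0565), no filter (0.0513), a block by the digit of the sample code (0.0572) or rescaling without small RNA genes (0.1003). EFNA4 was at 5.28, 4.16 and 3.71 FPKM in iEV and 7.71, 6.54 and 5.70 FPKM in iGLI2, with the iGLI2 values above (log2 fold change 0.51, SE 0.14, limma adjusted p = 0.0538). It passed without iEV replicate 1 (limma adjusted p = 0.0401), under rescaling without small RNA genes (0.0414) and with a pseudocount of 0.1 (0.0491). Blocks by replicate number (0.00653) or by the digit of the sample code (0.0374) also let it pass. EFNA4 and EFNA3 are 9318 bases apart and share a readthrough transcript that covers 15.0% and 43.9% of their exon bases, so their values are uncertain. EFNA3 was listed at 1.02, 0.699 and 0.622 FPKM in iEV and 1.31, 1.21 and 0.845 FPKM in iGLI2, and EFNB3 at 0.160, 0.442 and 0.502 FPKM in iEV and 0.634, 0.698 and 0.746 FPKM in iGLI2, both under the level set for testing, the first with overlap and the second above without it. The summed ephrin FPKM was 47.7 ± 1.86 in iEV and 53.5 ± 3.23 in iGLI2 (SD, n = 3). Within it the mean share of EFNB1 went from 3.37% to 24.3%, that of EFNB2 from 41.7% to 32.3%, that of EFNA5 from 22.3% to 15.0% and that of EFNA1 from 20.3% to 11.7%.

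Of the 14 Eph receptors 9 were tested, with 3 higher, 1 lower and 5 that did not pass, where 10.1% and 11.8% of all genes tested were higher and lower. EPHB6, a member that lacks kinase activity, lies at chr7:142552776-142568847 and was at 6.26, 7.46 and 6.48 FPKM in iEV and 15.96, 20.6 and 19.2 FPKM in iGLI2. Every iGLI2 library was above every iEV library, and the ratio of the means was 2.76 (log2 fold change 1.34, SE 0.11, limma adjusted p = 0.000998). EPHA10, the other kinase-dead member, was low in both groups, at 1.40, 1.22 and 1.09 FPKM in iEV and 2.44, 2.17 and 1.91 FPKM in iGLI2, without overlap (log2 fold change 0.50, SE 0.10, limma adjusted p = 0.0210). Its call was lost without iEV replicate 2 (adjusted p = 0.0744, limma), iEV replicate 3 (0.0662) or iGLI2 replicate 2 (0.0641). EPHA4, which binds ephrins of both classes (chr2:222282747-222438922), was at 14.7, 8.77 and 9.62 FPKM in iEV and 22.7, 18.7 and 19.3 FPKM in iGLI2. The groups did not overlap, iEV replicate 1 lay well above the other iEV libraries (log2 fold change 0.85, SE 0.19, limma adjusted p = 0.0274), and without that library the adjusted p was 0.00583. Without any of the other 5 the call was lost (0.0582 to 0.106). EPHB1 was at 1.46, 1.67 and 1.77 FPKM in iEV and 1.20, 0.906 and 0.842 FPKM in iGLI2, below without overlap (log2 fold change -0.41, SE 0.11, limma adjusted p = 0.0461). It was called without iGLI2 replicate 1 and lost without any of the other 5 (0.0524 to 0.130), under upper quartile scaling (0.0592), rescaling without small RNA genes (0.0534) a pseudocount of 0.1 (0.0542) and with a block by replicate number (0.0721) or by the digit of the sample code (0.0865). EPHB1 averaged just under 1 FPKM in iGLI2, so it was tested because of its level in iEV.

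EPHA2 was the most abundant Eph receptor in every library and did not pass. It was at 50.1, 65.5 and 62.6 FPKM in iEV and 64.7, 91.7 and 96.1 FPKM in iGLI2, where replicate 1 lay within the iEV range (log2 fold change 0.48, SE 0.18, limma adjusted p = 0.114). It passed without iGLI2 replicate 1 (log2 fold change 0.66, limma adjusted p = 0.0200), under rescaling without small RNA genes (0.0285) and with a block by replicate number (0.0139). EPHB4, the venous receptor of EFNB2, was at 35.3, 27.9 and 28.9 FPKM in iEV and 29.7, 20.3 and 21.3 FPKM in iGLI2, again with replicate 1 inside the iEV range (log2 fold change -0.37, SE 0.17, limma adjusted p = 0.173). It passed without that library (-0.53, limma adjusted p = 0.0262) and with a block by replicate number (0.0207). EPHB2, at 3.78, 4.59 and 4.32 FPKM in iEV and 4.77, 5.89 and 5.85 FPKM in iGLI2, lay above without overlap (limma adjusted p = 0.0808, and 0.0262 without iGLI2 replicate 1). It also passed under rescaling without small RNA genes (limma adjusted p = 0.0192) and with a block by replicate number (0.0193). EPHB3, at 1.62, 0.502 and 0.744 FPKM in iEV and 1.74, 1.26 and 1.33 FPKM in iGLI2, overlapped (limma adjusted p = 0.312, and 0.0456 without iEV replicate 1, its highest iEV library). EPHA1 overlapped between the groups, at 7.32, 6.43 and 6.47 FPKM in iEV and 7.05, 7.13 and 6.93 FPKM in iGLI2 (limma adjusted p = 0.593). The summed Eph receptor FPKM was 123 ± 1.13 in iEV and 164 ± 12.0 in iGLI2 (SD, n = 3). The mean share of EPHA2 in that sum was 48.3% in iEV and 51.0% in iGLI2, that of EPHB4 25.04% and 14.7%, and that of EPHB6 5.48% and 11.3%. The ratio of EPHB6 to EPHB4, chosen after the values were seen, was 0.177 to 0.267 in iEV and 0.537 to 1.01 in iGLI2.

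**Figure D4:**
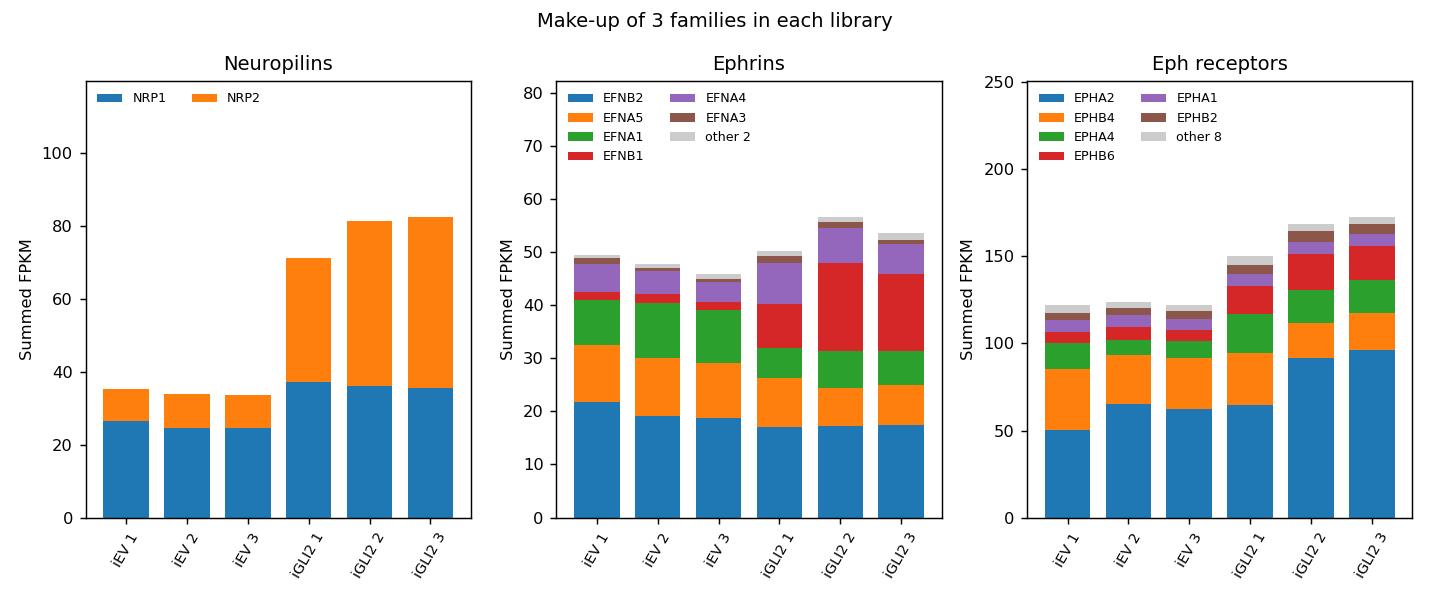
Summed FPKM of the neuropilins, ephrins and Eph receptors in each library, as stacked bars that start at 0, with a colour for each of the most abundant members. In the neuropilin panel NRP2 grows from a mean share of 26.5% to 53.5%, in the ephrin panel EFNB1 grows from 3.37% to 24.3%, and in the Eph receptor panel EPHB4 goes from 25.04% to 14.7%.

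Of the 4 netrins only NTN4 was tested, and it was higher in iGLI2 cells. NTN4, a netrin that binds laminins of the basement membrane, lies at chr12:96043031-96184536. It was at 14.6, 14.1 and 13.5 FPKM in iEV replicates 1 to 3 and at 44.4, 46.7 and 48.3 FPKM in iGLI2 replicates 1 to 3. The values were tight in both groups and did not overlap, and the mean went from 14.1 ± 0.559 to 46.5 ± 1.97 FPKM (SD, n = 3), a ratio of 3.30 (log2 fold change 1.65, SE 0.061, limma adjusted p = 0.000131). NTN1, the founding netrin, was listed at 0.670, 0.703 and 0.619 FPKM in iEV and 0.861, 1.42 and 1.29 FPKM in iGLI2, without overlap and under the level set for testing (limma adjusted p = 0.0653 in the fit without the filter). NTN4 made up 94.6% of the summed netrin FPKM in iEV and 97.3% in iGLI2 (means of 3 libraries). NTN5 reached at most 0.0641 FPKM and was listed at 0 in the iGLI2 libraries.

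Slits and Robos were under the level set for testing. The highest value of SLIT2 or SLIT3 in any library was 0.00488 FPKM, and the highest of the Robos was that of ROBO3, 0.965 FPKM. An entry that merges ARHGAP19 and SLIT1 under a joint name fell outside the name rule, and its value cannot be split between the genes. EPHA5, ROBO2 and SEMA6D were listed at 0 in every library. Of the 28 members under the level set for testing, 19 stayed under 0.3 FPKM in every library: EPHA3, EPHA5, EPHA6, EPHA7, EPHA8, NTN3, NTN5, PLXNA4, ROBO1, ROBO2, ROBO4, SEMA3D, SEMA3G, SEMA5A, SEMA5B, SEMA6A, SEMA6D, SLIT2 and SLIT3. EFNA2 and SEMA6C reached at most 0.474 and 0.435 FPKM.

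Other genes of the pathway were read from lists of 26 further ligands, receptors and co-receptors and 50 cytoplasmic effectors. Of the ligands and receptors 10 were tested, with 5 higher, 2 lower and 3 that did not pass, and a median log2 fold change of 0.25. Over all genes tested 10.1% were higher and 11.8% lower. UNC5B, a netrin receptor, had the largest difference among these ligands and receptors. It was at 2.54, 1.90 and 1.82 FPKM in iEV and 18.5, 20.5 and 20.7 FPKM in iGLI2, without overlap (log2 fold change 2.77, SE 0.11, limma adjusted p = 0.000131). UNC5C, a related receptor, was at 0.570, 0.409 and 0.417 FPKM in iEV and 1.81, 1.46 and 1.48 FPKM in iGLI2 (log2 fold change 0.82, SE 0.11, limma adjusted p = 0.00449). It too was tested only because of its level in iGLI2, and had a limma adjusted p of 0.00279 in the fit without the filter. DCC, the attractive netrin receptor, reached at most 0.0253 FPKM. RGMA, a repulsive ligand, was at 2.66, 1.46 and 1.65 FPKM in iEV and 5.11, 5.22 and 5.43 FPKM in iGLI2 (log2 fold change 1.12, SE 0.16, limma adjusted p = 0.00558). Its receptor NEO1 and the proteoglycan GPC1 were also higher, and MET and MST1R, receptor kinases that associate with B-class plexins, were lower.

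Of the 50 effectors 48 were in the table and 41 were tested, with 5 higher, 6 lower and 30 that did not pass (median log2 fold change -0.041), where 10.1% and 11.8% of all genes tested were higher and lower. ABLIM3, an actin-binding protein, was at 15.8, 18.7 and 17.4 FPKM in iEV and 35.8, 38.1 and 38.0 FPKM in iGLI2 (log2 fold change 1.07, SE 0.077, limma adjusted p = 0.000693). The kinase FYN was at 10.4, 11.1 and 10.3 FPKM in iEV and 16.3, 20.5 and 20.5 FPKM in iGLI2 (log2 fold change 0.78, SE 0.10, limma adjusted p = 0.00436). The kinase SRC, of the same family, went the other way, at 28.4, 24.8 and 24.2 FPKM in iEV and 14.6, 16.95 and 16.8 FPKM in iGLI2 (log2 fold change -0.64, SE 0.091, limma adjusted p = 0.00587). MICAL2, an enzyme that oxidises actin, was at 51.3, 42.7 and 44.4 FPKM in iEV and 23.4, 20.02 and 20.1 FPKM in iGLI2 (log2 fold change -1.09, SE 0.10, limma adjusted p = 0.00135). RND1, a small GTPase that binds plexins, was at 3.40, 5.63 and 5.04 FPKM in iEV and 1.24, 1.54 and 1.48 FPKM in iGLI2 (log2 fold change -1.22, SE 0.17, limma adjusted p = 0.00509). FARP1, an exchange factor of the plexin pathway, was at 10.3, 9.49 and 9.40 FPKM in iEV and 6.74, 5.22 and 5.70 FPKM in iGLI2 (log2 fold change -0.64, SE 0.10, limma adjusted p = 0.00695). GIPC1, which binds the tail of NRP1, was at 88.5, 90.6 and 87.9 FPKM in iEV and 67.8, 72.1 and 73.1 FPKM in iGLI2 (log2 fold change -0.32, SE 0.057, limma adjusted p = 0.0131). For these 7 effectors, picked by their small p, the groups did not overlap. Over all genes tested that was so for 42.0% in either direction. RASA1, DPYSL3 and TIAM1 were also higher and ABL1 was lower.

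**Figure D5:**
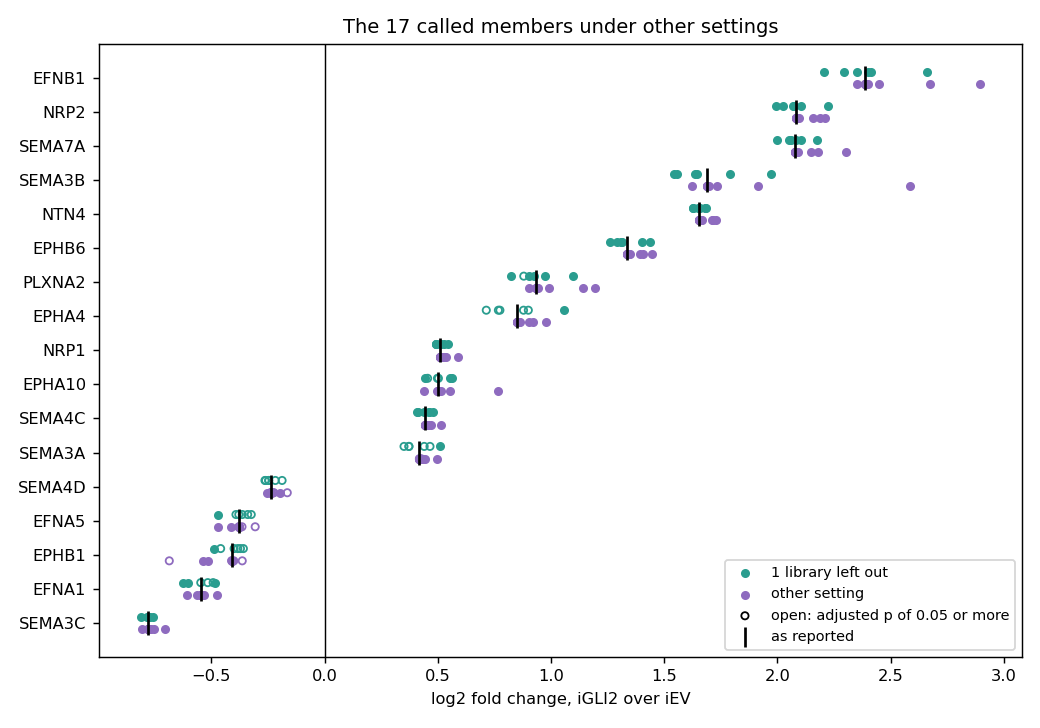
Log2 fold change of the 17 members that passed, as reported (black bars), without each library in turn (green) and under the other settings (purple), with open circles where the adjusted p was 0.05 or more. The circles of the 9 members that passed in every fit, from SEMA3C at -0.78 to EFNB1 at 2.39, are all filled, whereas SEMA4D has open circles for each of the 6 left-out libraries.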

How the data were processed

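The deposited table holds 1 value per gene and library for 3 YAPC-iEV and 3 YAPC-iGLI2 libraries, made from total RNA with an unstranded TruSeq kit. The authors trimmed reads with Trimmomatic and aligned them to hg19 with tophat2, and their processing notes also name Cuffdiff 2.1.1. The header of the table names no unit, and FPKM was inferred as the unit of the deposited values from their range and from the Cufflinks style of the loci. The authors' scaling between libraries and the gene annotation are not given in the sources used here. Reads cannot be counted from FPKM, so depth is unknown and no counting error is given.

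Of 27024 entries, 1252 off the primary chromosomes were left out, and of entries that share a name the one with the highest mean was kept (330 left out), which left 25442 genes. All 6 value columns matched a sample (0 without). A pseudocount of 1 was added, and the 12493 genes averaging 1 FPKM or more were tested on the log2 scale with limma 3.58.1 (R 4.3.3), condition only, with a trend on mean level, two-sided, with Benjamini-Hochberg adjustment and a threshold of 0.05. Fold changes refer to FPKM + 1, which understates those of low genes. An exact permutation test of 3 against 3 libraries cannot give p below 0.1, so ratios and sums are given without a test. Of the members, every tested gene is named. Values and tests are given for those that passed or averaged 10 FPKM or more, and values for untested members that reached 1 FPKM or whose groups did not overlap at 0.5 FPKM or more. Of other pathway genes, the 5 with the smallest p in each direction are given. Members and lists were chosen with earlier results of these data known. The other settings tried were upper quartile scaling, quantile normalization, rescaling without small RNA genes, a pseudocount of 0.1, no filter or one of 5 FPKM, no trend, blocks by replicate number and by the digit of the sample code, stricter thresholds, and leaving out each library. The fit was tested on simulated data. Exon overlaps came from GENCODE release 44 lifted to GRCh37, and start sites from RefSeq. MICAL1 and SRGAP2 were not analysed here, and the value of a further marker gene is not reported here.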

Additional observations from a re-analysis of the deposited data

How the results depend on the processing

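The members called higher (12) and lower (5) kept their direction in every fit, and of the 549 values of named members under alternatives 462 kept direction and side of the threshold, 50 no longer passed, 33 newly passed and 4 changed sign. The 4 concern members that did not pass: PLXND1 without iGLI2 replicate 2 (-0.0088) or 3 (-0.029), and SEMA6B without iEV replicate 3 (0.12) or iGLI2 replicate 1 (0.16). Over all left-out libraries PLXND1 ranged from -0.029 to 0.32 and SEMA6B from -0.37 to 0.16. With 1 library left out, 1223 to 3753 genes passed against 2742, 8 to 15 members were higher, 1 to 6 lower, and of the other pathway genes 7 to 12 were higher (10 with all libraries) and 4 to 13 lower (8). On replicates 2 and 3 alone, a setting chosen after seeing the data, 5467 genes passed, 21 members were higher, and 17 other pathway genes were higher and 17 lower. At an adjusted p under 0.01 the counts were 1095 genes, 8 members higher and 1 lower, and 7 other pathway genes higher and 4 lower. With at least 2-fold required they were 527 genes, 6 members higher, 0 lower, and 4 other pathway genes higher and 2 lower. The members lower numbered 2 under upper quartile scaling, 3 after rescaling without small RNA genes and 2 with a block by the digit of the sample code, where SEMA3A was also lost from the members higher and EFNA4 gained. The cause of these moves was not tested. The deviations of same-numbered libraries had small positive correlations (0.204, 0.0919 and 0.0276), and those of other pairs ran from -0.194 to 0.117. Not every library correlated best with its own number: iEV replicate 2 did so with iGLI2 replicate 3 (0.117). With 3 libraries in a group these correlations cannot decide whether the replicate numbers mark a pairing, and the main fit used none. A fit with the replicate block gave 3928 genes against 2742 without it, 15 members higher and 6 lower, and 12 other pathway genes higher and 12 lower. Depth is unknown, which limits every statement on members under 1 FPKM.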
